A study of Mus musculus with 4 samples.

Results

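The 5 genes described here act at the surface membrane of muscle cells and were followed across 4 RNA-seq libraries of cultured mouse myoblasts. They were taken by their symbol in the deposited table, 3 as fusion genes (Tmem8c, which encodes myomaker, Kirrel and Adam12) and 2 as membrane repair genes (Dysf and Ano5). All 5 members were present among the 3760 genes of the table. The cells were myoblasts from adult C57BL/6 skeletal muscle that the labels call twist2+. They were infected with retrovirus for 24 h and kept in growth medium with 20% fetal bovine serum for a further 24 h. The groups, with 1 library each, were Twist2-IRES-GFP virus with 5 days in differentiation medium (2% horse serum), GFP virus with 5 days in differentiation medium, Twist2-IRES-GFP virus in growth medium and GFP virus in growth medium. These are called Twist2 and GFP cells below. The labels also describe both Twist2 libraries as control, and they were grouped here by their titles and the infected tag. Infection, strain, matrigel culture and 2% primocin were common to all 4 groups. Whether the libraries came from separate cultures or animals is not stated, so no difference below has a replicate check and no p-value is given.

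Skeletal muscle fibres form when mononucleated myoblasts leave the cell cycle, recognise each other, adhere and merge their plasma membranes. Immunoglobulin-domain proteins of the Kirrel type mediate recognition in fly and zebrafish fusion, myomaker is a multipass membrane protein that vertebrate myoblasts need in order to fuse, and ADAM12 (meltrin alpha) is a membrane-bound metalloprotease and disintegrin named for its study in myoblast fusion. Once formed, fibres reseal tears of their membrane with the help of dysferlin, a calcium-binding ferlin with C2 domains, and of anoctamin 5, a membrane protein of the TMEM16 family. Loss of either repair gene causes limb-girdle muscular dystrophy in humans.

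The 4 libraries held between 9235281 and 12362290 reads, in which the listed genes took 36.9% to 65.1%. Levels are in CPM, the reads of a gene scaled to a fixed total of reads per library. Twist2 stood at 674 CPM in the Twist2 differentiation library and 1438 CPM in the Twist2 growth library, against 0 reads and 1 read in the GFP differentiation and growth libraries, which matches the virus named for each library. At this depth 3 reads, the limit that a count of 0 allows, come to 0.325 CPM in the GFP differentiation library. The myoblast markers Pax7, Myod1, Cdh15 and Des (4 of 5 fixed names were listed) summed to 4838 CPM in Twist2 and 8123 CPM in GFP cells after differentiation, and to 1577 CPM in Twist2 and 3361 CPM in GFP cells in growth medium. All 4 were lower in Twist2 cells in growth medium, but after differentiation Des carried the sum, while Pax7 (34.6 CPM in Twist2 and 4.01 CPM in GFP cells) and Myod1 (1068 CPM in Twist2 and 810 CPM in GFP cells) were higher in Twist2 cells and Cdh15 stood at 799.7 CPM in Twist2 and 806 CPM in GFP cells. Of 4 pericyte names Rgs5 alone was listed, at 4.69 CPM in Twist2 and 0.108 CPM in GFP cells after differentiation and at 85.1 CPM in Twist2 and 51.7 CPM in GFP cells in growth medium. None of the 5 endothelial, 5 leukocyte, 4 adipocyte and 4 Schwann cell names was listed, which leaves their level unknown, because genes were listed by their values. All 3760 genes reach 10 CPM in 2 or more libraries and, in the authors' deposited table, differ from the GFP growth library by an absolute log2 ratio of 1 or more in 1 or more of its comparisons.

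Tmem8c had the highest level of the members in differentiation medium and the widest range over the 4 libraries. The gene, now named Mymk, lies on chromosome 2 (27061636 to 27072179, minus strand, GRCm38) and has 6 exon blocks in GENCODE M21, with 1511 bp of exon in all. It stood at 963 CPM in Twist2 cells and 2972 CPM in GFP cells after differentiation, and at 4.25 CPM in Twist2 cells and 45.6 CPM in GFP cells in growth medium. Both differentiation libraries were above both growth libraries, and the Twist2 library was below its GFP counterpart in each medium. The lowest value rested on 47 reads (95% counting interval 3.12 to 5.65 CPM), and the intervals of the 4 libraries did not overlap.

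With 1 CPM added to both values, the log2 ratio of Tmem8c was 7.52 after differentiation of Twist2 cells and 6.00 after differentiation of GFP cells. Without that pseudocount, differentiation medium gave 227-fold more than growth medium in Twist2 cells (counting interval 170.4 to 309) and 65.2-fold more in GFP cells (interval 59.4 to 71.8). The larger fold in Twist2 cells started from a lower growth level and ended at a lower differentiated level. Twist2 cells had 10.7-fold less than GFP cells in growth medium (log2 ratio -3.15, counting interval of the log2 fold -3.89 to -2.99) and 3.09-fold less in differentiation medium (log2 ratio -1.62, interval -1.66 to -1.59). In growth medium 23 of 3514 genes tested had a lower ratio than Tmem8c. The difference of the 2 responses on the log2 scale was 1.53 (Twist2 minus GFP). It dropped to 0.83 with a pseudocount of 5 CPM and to 0.93 with libraries scaled to reads of genes outside the table (called outside-table scaling below), so its place above 2-fold depended on these settings.

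Less Tmem8c in a bulk library can come from fewer cells that express it or from less RNA in each, which cannot be told apart here. Of the 5 fixed myotube markers, Myh3, Ckm, Acta1 and Myog were also lower in Twist2 cells in both media. Myh8 was lower in differentiation medium but not in growth medium, where it had 5 reads in Twist2 and 1 read in GFP cells. The 5 markers summed to 5467 CPM in Twist2 cells and 42563 CPM in GFP cells after differentiation, and to 18.9 CPM in Twist2 cells and 167 CPM in GFP cells in growth medium. Myog, a transcription factor that drives muscle differentiation, stood at 378 CPM in Twist2 cells and 1075 CPM in GFP cells after differentiation, and at 3.52 CPM in Twist2 cells and 76.4 CPM in GFP cells in growth medium. The part of these markers in the Tmem8c values was not tested. The genes whose 4 log2 levels, centred on their own mean, lay nearest to those of Tmem8c were the fast myosin light chain gene Mylpf (root-mean-square distance 0.22), Myl1 (0.22) and Hrc (0.23), over 4 libraries.

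**Figure D1:**
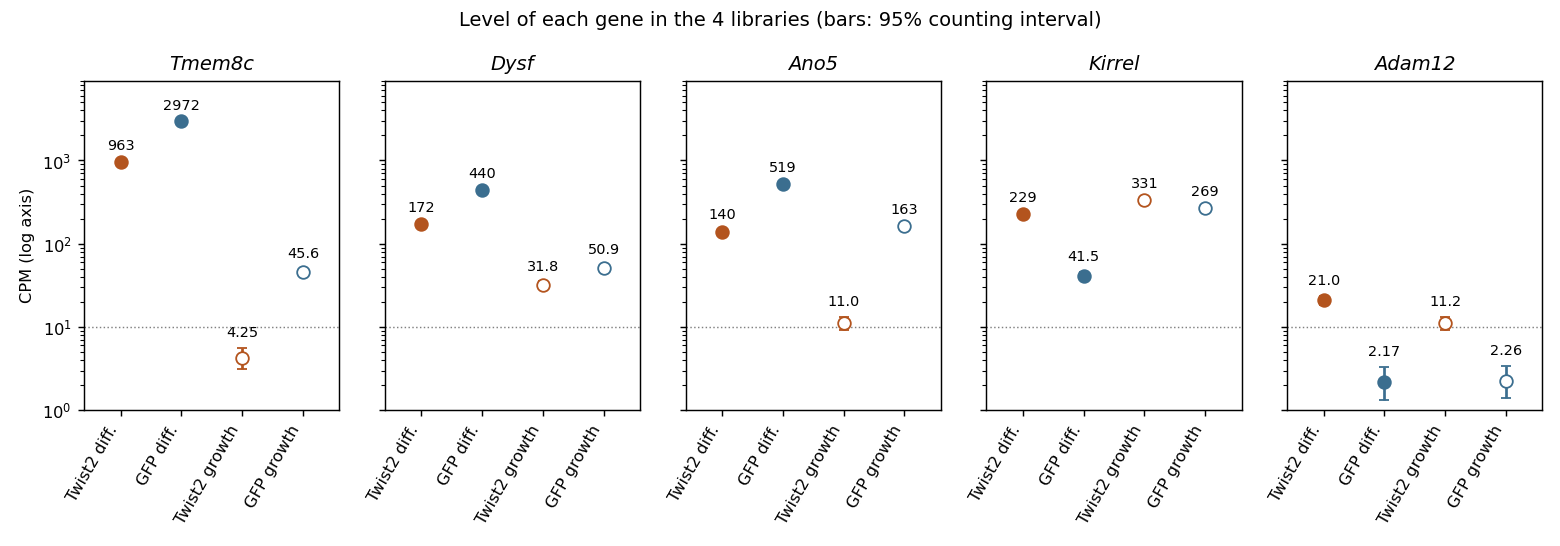
Level of each of the 5 genes in CPM on a log axis, by library (diff., differentiation medium; growth, growth medium), with 95% counting intervals as bars; orange, Twist2 cells; blue, GFP cells; filled, differentiation medium; dotted line, 10 CPM. Tmem8c runs from 4.25 to 2972 CPM, Dysf and Ano5 are highest in differentiated GFP cells, Kirrel is lowest there at 41.5 CPM, and Adam12 lies above 10 CPM only in the Twist2 libraries.

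Dysf followed the same order of libraries over a smaller range. It lies on chromosome 6 (84008590 to 84211060, plus strand, GRCm38) with 62 exon blocks and 8328 bp of exon. Dysf stood at 172 CPM in Twist2 cells and 440.1 CPM in GFP cells after differentiation, and at 31.8 CPM in Twist2 cells and 50.9 CPM in GFP cells in growth medium. Differentiated libraries were again above growth libraries with either virus, and no counting intervals overlapped. The log2 ratio was 2.40 after differentiation of Twist2 cells (interval 2.28 to 2.61) and 3.09 after differentiation of GFP cells (interval 2.98 to 3.25). Twist2 cells were lower than GFP cells by less than 2-fold in growth medium (log2 ratio -0.66) and by 2.55-fold in differentiation medium (log2 ratio -1.35, interval -1.43 to -1.28). The difference of responses was -0.68 on the log2 scale, and -1.23 with outside-table scaling. Dysf was the member with the smaller response in Twist2 than in GFP cells. The nearest patterns were those of Chrd (distance 0.15), Ogn (0.15) and Slc18a1 (0.16). Chrd and Slc18a1 reached 10 CPM in the differentiation libraries alone, so they could be listed only if they were higher there. The antisense genes Gm33024 and Gm15475 share 105 and 352 bp of exon with Dysf, and the strand setting of the counting is not given in the sources used here.

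Ano5 differed from Dysf in that undifferentiated GFP cells already had much of it. The gene lies on chromosome 7 (51511029 to 51598709, plus strand, GRCm38), with 23 exon blocks and 7820 bp of exon. Ano5 stood at 139.9 CPM in Twist2 cells and 519 CPM in GFP cells after differentiation, and at 11.02 CPM in Twist2 cells and 163 CPM in GFP cells in growth medium. Twist2 cells after 5 days in differentiation medium thus lay just below GFP cells that had never left growth medium (0.859-fold, log2 counting interval -0.32 to -0.12), whereas Tmem8c in the same pair of libraries was 21.1-fold higher and Dysf 3.39-fold higher in the Twist2 library. Those 3 ratios share the same libraries.

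The ratio of Ano5 between Twist2 and GFP cells in growth medium was among the lowest of the table. It was 14.8-fold lower in Twist2 cells (log2 ratio -3.77, interval -4.16 to -3.62), and 7 of 3514 genes tested had a lower ratio. In differentiation medium it was 3.71-fold lower in Twist2 cells (log2 ratio -1.88, interval -1.97 to -1.81). Differentiation was accompanied by a log2 ratio of 3.55 in Twist2 cells (interval 3.40 to 3.94) and 1.67 in GFP cells (interval 1.59 to 1.76). The difference of responses, 1.88 on the log2 scale, was above 2-fold under all 5 alternative settings (1.32 to 1.98). The nearest patterns were those of Dok7 (distance 0.31), an adaptor at the neuromuscular junction, the fast-fibre alpha-actinin gene Actn3 (0.37) and Synpo2l (0.39), which were farther away than the nearest patterns of the other 4 members.

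Because Twist2 and the myogenic factors Myod1 and Myog bind E-boxes (CANNTG), the promoter windows of the members that have an entry in the RefSeq table are shown, from 250 bases before to 50 bases after the start site. Capitals mark each CANNTG, a motif that reads the same on both strands in its fixed letters. The windows are Ano5 at chr7:51510779-51511078 (plus strand), the 2 annotated Dysf starts at chr6:84008348-84008647 and chr6:84019136-84019435 (plus strand), and Kirrel at chr3:87174488-87174787 (minus strand), all on GRCm38.p6 and written 5′ to 3′.
Ano5: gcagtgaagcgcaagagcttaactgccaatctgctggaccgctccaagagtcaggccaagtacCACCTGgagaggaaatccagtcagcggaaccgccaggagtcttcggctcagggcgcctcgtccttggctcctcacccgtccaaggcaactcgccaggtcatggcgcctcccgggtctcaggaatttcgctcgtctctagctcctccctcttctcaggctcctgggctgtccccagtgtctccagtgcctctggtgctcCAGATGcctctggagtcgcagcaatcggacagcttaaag
Dysf first start: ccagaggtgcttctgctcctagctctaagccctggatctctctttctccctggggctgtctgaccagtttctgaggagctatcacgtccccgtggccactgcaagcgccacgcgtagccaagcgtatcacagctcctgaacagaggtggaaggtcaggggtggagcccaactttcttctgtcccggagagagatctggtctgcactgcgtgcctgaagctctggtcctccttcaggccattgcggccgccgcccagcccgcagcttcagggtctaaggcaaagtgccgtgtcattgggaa
Dysf second start: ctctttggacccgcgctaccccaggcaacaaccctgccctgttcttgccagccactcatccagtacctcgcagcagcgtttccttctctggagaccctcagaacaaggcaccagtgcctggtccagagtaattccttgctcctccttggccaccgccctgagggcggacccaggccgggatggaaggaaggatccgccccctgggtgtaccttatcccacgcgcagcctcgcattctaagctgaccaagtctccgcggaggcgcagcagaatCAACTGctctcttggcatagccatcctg
Kirrel: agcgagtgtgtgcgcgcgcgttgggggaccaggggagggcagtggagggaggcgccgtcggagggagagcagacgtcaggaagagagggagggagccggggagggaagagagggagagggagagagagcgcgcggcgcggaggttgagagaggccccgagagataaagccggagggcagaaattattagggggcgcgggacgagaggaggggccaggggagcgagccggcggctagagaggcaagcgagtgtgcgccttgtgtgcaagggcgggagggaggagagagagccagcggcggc
The Ano5 window held 2 E-boxes, CACCTG beginning at position -187 and CAGATG at position 12, counted from the start site as position 1. The second Dysf window held 1, CAACTG at position 23. The first Dysf window and the Kirrel window held 0. Of 32817 promoter windows of this length in the table, 72.3% held at least 1 CANNTG. On the other strand CAGATG reads as the E-box searched under the letters CATCTG, which 17.2% of windows held on either strand. The other motifs, searched on both strands, had no match in these 4 windows. They were the E-boxes CAGCTG (in 16.3% of all windows) and CATATG (in 3.92%), the TEAD motif CATTCC (in 14.7%) and the TATA box TATAAA (in 13.6%), of which the first pair also match CANNTG. These matches describe the letters of the windows only.

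Kirrel went the other way after differentiation of GFP cells. It encodes a nephrin-like adhesion protein, and the related fly proteins Dumbfounded and Roughest attract myoblasts to founder cells. The gene lies on chromosome 3 (87078593 to 87174747, minus strand, GRCm38), with 16 exon blocks and 7463 bp of exon. Kirrel stood at 229 CPM in Twist2 cells and 41.5 CPM in GFP cells after differentiation, and at 331 CPM in Twist2 cells and 269 CPM in GFP cells in growth medium. Differentiated GFP cells were set apart from the other 3 libraries, which lay within a narrower range. The log2 ratio after differentiation was -0.53 in Twist2 cells (interval -0.60 to -0.46) and -2.67 in GFP cells (interval -2.85 to -2.54), where Kirrel was 6.48-fold lower. In differentiation medium Kirrel was 5.51-fold higher in Twist2 than in GFP cells (log2 ratio 2.43, interval 2.31 to 2.62), and in growth medium 1.23-fold higher (log2 ratio 0.30). The difference of responses was 2.14 on the log2 scale, and 1.605 to 2.16 over all settings. The nearest patterns were those of the replication helicase gene Mcm4 (distance 0.053), Marcksl1 (0.059) and Hps1 (0.061).

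By CPM, the lowest member in every library but Twist2 growth medium was Adam12. In that library Tmem8c (4.25 CPM) was lower. The counting intervals of Ano5 (11.02 CPM, 9.15 to 13.2) and Adam12 (9.32 to 13.4) overlapped there. The Adam12 gene lies on chromosome 7 (133883199 to 134232146, minus strand, GRCm38), with 28 exon blocks and 10573 bp of exon. It stood at 21.03 CPM (260 reads) in Twist2 cells and 2.17 CPM (20 reads, interval 1.32 to 3.34) in GFP cells after differentiation, and at 11.2 CPM (124 reads) in Twist2 cells and 2.26 CPM (22 reads, interval 1.41 to 3.42) in GFP cells in growth medium. Both Twist2 libraries were above both GFP libraries, and the intervals of the 2 GFP libraries overlapped. Adam12 reached 10 CPM in the 2 Twist2 libraries alone, so it could be listed only if it was higher there, and its higher level in Twist2 cells supports nothing beyond that description. Twist2 cells had 9.71-fold more than GFP cells in differentiation medium (interval 6.16 to 16.2, log2 ratio with pseudocount 2.80) and 4.96-fold more in growth medium (interval 3.14 to 8.20, log2 ratio 1.91).

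The log2 ratio of Adam12 after differentiation was 0.85 in Twist2 cells (interval 0.59 to 1.23) and -0.041 in GFP cells (interval -1.01 to 0.88), where no difference was detectable at this depth. The Twist2 value passed 2-fold with outside-table scaling (1.08) or with ratios centred on the median of all genes (1.07). The nearest patterns were those of Pcolce (distance 0.11), which encodes an enhancer of procollagen processing, C1qtnf1 (0.11) and Edil3 (0.24). C1qtnf1 and Edil3, like Adam12, reached 10 CPM in the Twist2 libraries alone. They could be listed only if they were higher there, so their likeness to Adam12 was partly fixed by the listing. The fixed fibroblast and fibro-adipogenic markers, of which Col3a1, Dcn, Ly6a and Tcf4 (4 of 8 names) were listed, also summed to more in Twist2 cells. They gave 8907 CPM in Twist2 cells and 732 CPM in GFP cells after differentiation, and 3181 CPM in Twist2 cells and 1003 CPM in GFP cells in growth medium. Col3a1 made up most of these sums and Tcf4 was lower in Twist2 cells in both media, while Ly6a had 0 reads in the GFP differentiation library. Dcn reached 10 CPM in the Twist2 libraries alone, so it could be listed only if it was higher there. Ly6a reached 10 CPM in the growth libraries alone. The part of these markers in the Adam12 values was not tested.

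The order of the 5 genes was compared per kilobase of exon, because longer transcripts give more reads. Exon length here joins the exons of all annotated transcripts. Dysf and Ano5 differ more in coding length (6517 bp and 2715 bp) than in exon length (8328 bp and 7820 bp). Their order in Twist2 cells after differentiation depends on this choice. In Twist2 cells after differentiation Tmem8c led with 637 CPM per kb, ahead of Kirrel (30.6 CPM per kb), Dysf (20.7), Ano5 (17.9) and Adam12 (1.99). In GFP cells after differentiation Tmem8c reached 1967 CPM per kb, and Ano5 (66.4 CPM per kb) and Dysf (52.8) came before Kirrel (5.56) and Adam12 (0.205). In growth medium Kirrel led with either virus. It had 44.3 CPM per kb in Twist2 cells, where the other 4 lay between 1.06 and 3.82, and 36.0 CPM per kb in GFP cells, ahead of Tmem8c (30.2), Ano5 (20.8), Dysf (6.11) and Adam12 (0.214). Per kilobase of exon, Tmem8c was thus close behind Kirrel in undifferentiated GFP cells and far behind it in undifferentiated Twist2 cells. The size of these gaps also depends on the length used, with coding lengths of 675 bp for Tmem8c and 2454 bp for Kirrel.

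The members' calls were set beside those of every listed gene whose higher library reached 10 CPM, at a threshold of 2-fold on the log2(CPM + 1) scale. After differentiation of Twist2 cells 3 of 5 members were higher (Tmem8c, Dysf and Ano5) and 0 lower, against 26.5% higher and 24.5% lower of 3715 genes (51.0% in all). After differentiation of GFP cells, 3 of the 4 members over the minimum were higher (again Tmem8c, Dysf and Ano5) and 1 was lower (Kirrel), while 32.6% of all 3694 genes were higher and 40.9% lower. With 51.0% and 73.5% of all genes called in either direction, the total of called members is near the background in both differentiation comparisons. On the higher side the members exceeded the share of all genes. They are 5 genes chosen with earlier results of these data known, and this excess was not tested. Between Twist2 and GFP cells in growth medium 1 of 5 was higher (Adam12) and 2 were lower (Tmem8c and Ano5), against 5.21% higher and 10.6% lower of 3514 genes (15.8% in all), the comparison in which calls were rarest. In differentiation medium all 5 were called, 2 higher and 3 lower, where 25.4% of 3437 genes were higher and 25.2% lower (50.6% in all). Adam12 is among the higher members in each medium, and its direction there was fixed by its listing through the Twist2 libraries alone. For the difference of responses 3 of 5 members were at least 2-fold higher and 0 lower, against 25.5% higher and 12.6% lower of 3760 genes (38.1% in all). The 2 differentiation comparisons use separate libraries, whereas each virus comparison shares libraries with both of them.

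**Figure D2:**
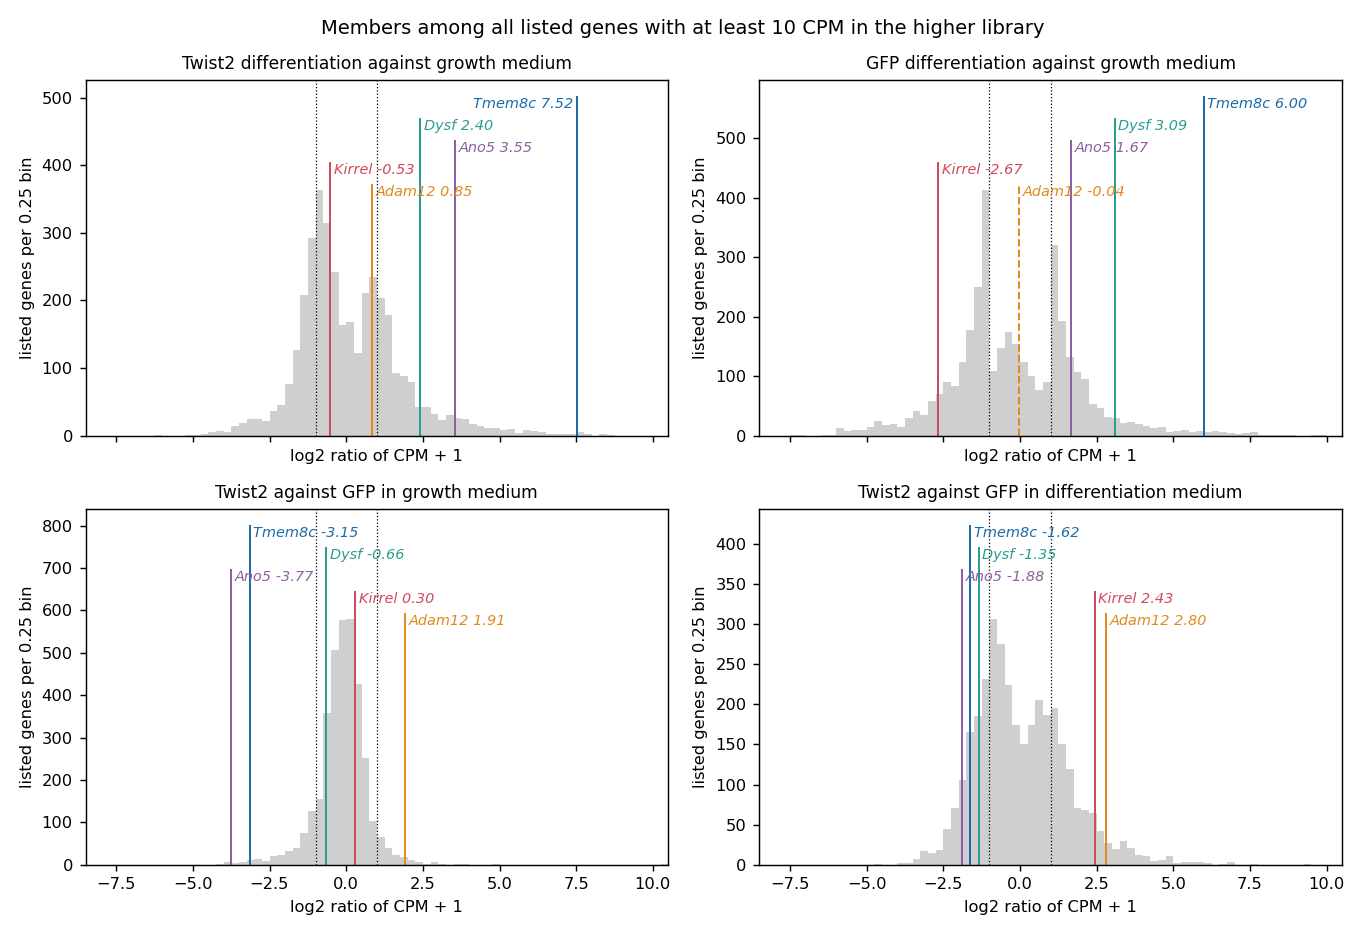
Histograms of the log2 ratio of CPM + 1 over the listed genes that reached 10 CPM in their higher library (grey, genes per bin), with the 5 members as coloured lines, for 4 comparisons; dotted lines, 2-fold; dashed line, a member under the minimum. Tmem8c lies far to the right in both differentiation panels (7.52 in Twist2 and 6.00 in GFP cells), Ano5 and Tmem8c lie at the left end in growth medium (-3.77 and -3.15), and in differentiation medium 3 members lie to the left of the dotted lines and 2 to the right.

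The split of all genes depended on scaling. For Twist2 differentiation 51.9% of called genes were on the higher side, against 66.8% with outside-table scaling and 64.6% with median centring. For GFP differentiation the share was 44.4%, against 57.8% with median-of-ratios size factors, 69.8% with outside-table scaling and 59.1% with median centring. For Twist2 against GFP it was 33.0% in growth medium, against 53.0% with size factors, and 50.2% in differentiation medium, against 24.3% with the outside-table scaling. For the difference of responses it was 67.0%, against 47.9%, 34.8% and 55.6% with size factors, outside-table scaling and median centring. The called members kept their direction and their call under each of these scalings in the 4 comparisons of libraries.

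The libraries also differed by transcript length, when genes were cut into 5 groups of rising exon length. In the shortest group, which holds Tmem8c, the median log2 ratio of Twist2 over GFP cells in differentiation medium was 0.42, and in the longest group, which holds Adam12, it was -0.70. Tmem8c had a log2 ratio of -1.62 and Adam12, listed only through its Twist2 libraries, 2.80. The part of length in the members' values was not tested. Dysf, Ano5 and Kirrel belong to the group next to the longest, whose median was -0.22 in that comparison and -0.17 in growth medium.

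The 2 differentiation responses were drawn against each other to show where the members lay among the other fusion and repair genes. Tmem8c lay beside Trim72, which encodes the membrane repair protein MG53, at the upper right of the plot of responses. Trim72 stood at 330.4 CPM in Twist2 cells and 1197 CPM in GFP cells after differentiation, and at 1.81 CPM in Twist2 cells and 15.4 CPM in GFP cells in growth medium. Its libraries had the same order as those of Tmem8c and Dysf.

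**Figure D3:**
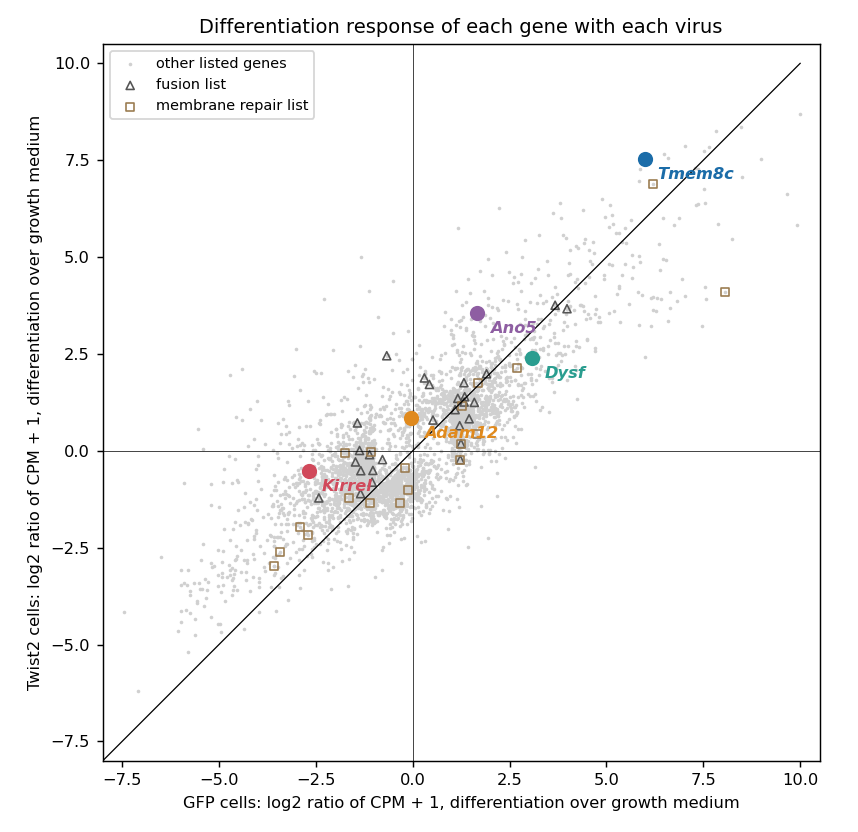
Log2 ratio of CPM + 1 of differentiation over growth medium in Twist2 cells (vertical axis) and GFP cells (horizontal axis) for all 3760 listed genes (grey), the other fusion genes (triangles), the other membrane repair genes (squares) and the 5 members (coloured); line, equal responses. Tmem8c, Ano5, Kirrel and Adam12 lie above the line and Dysf below it.

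Of 67 names in the fusion list 30 were in the table, 27 of them outside the members. After differentiation of Twist2 cells 12 of the 27 were at least 2-fold higher and 2 lower (median log2 ratio 0.79), against 26.5% higher, 24.5% lower and a median of -0.22 over all genes tested. After differentiation of GFP cells 13 were higher and 9 lower (median 0.52), against 32.6% higher, 40.9% lower and a median of -0.38. The 2 lower genes in Twist2 cells were 0 with outside-table scaling or median centring, and the 9 lower genes in GFP cells were 4 with size factors, 3 with median centring and 1 with outside-table scaling. Gm7325, now named Mymx, encodes the small fusion protein that acts together with myomaker. It stood at 15.0 CPM (185 reads) in Twist2 cells and 36.7 CPM (339 reads) in GFP cells after differentiation, and at 0.181 CPM (2 reads) in Twist2 cells and 1.95 CPM (19 reads) in GFP cells in growth medium, the same order of libraries as Tmem8c. Its log2 ratio between Twist2 and GFP cells was -1.32 in growth medium, known only within a counting interval of -6.58 to -1.38 without the pseudocount. Gm7325 reached 10 CPM in the differentiation libraries alone, so it could be listed only if it was higher there.

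Other fusion genes that were higher after differentiation with both viruses were the creatine kinase gene Ckb (log2 ratio 3.67 in Twist2 and 3.98 in GFP cells) and the adhesion gene Ncam1 (1.99 in Twist2 and 1.91 in GFP cells). The junctional adhesion gene Jam2 was higher too (1.25 in Twist2 and 1.59 in GFP cells), and it was lower in Twist2 than in GFP cells in both growth (-1.81) and differentiation medium (-2.15). The adhesion gene Vcam1 (-1.22 in Twist2 and -2.42 in GFP cells) was lower after differentiation with both viruses, as Kirrel was in GFP cells. The tetraspanin gene Cd82 had log2 ratios of 2.45 in Twist2 and -0.67 in GFP cells, which gave the largest difference of responses in this list (3.12). In growth medium 2 of 26 fusion genes over the minimum were higher in Twist2 than in GFP cells and 6 lower, against 5.21% and 10.6% of all genes, and 1 was higher with a pseudocount of 5 CPM. In differentiation medium 9 of 27 were higher and 5 lower (median 0.10), against 25.4% higher, 25.2% lower and a median of -0.19 over all genes tested, and these counts became 2 and 9 with outside-table scaling, with a median of -0.50. The matrix protease gene Mmp14 (2.67) and the interleukin 4 receptor gene Il4ra (2.28) were on the higher side with Kirrel and Adam12, and the matrix ligand gene Npnt (-1.72) on the lower side.

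Of 44 membrane repair names 21 were in the table, 19 outside the members. They did not share 1 direction after differentiation. In Twist2 cells 5 of 19 were at least 2-fold higher and 8 lower (median log2 ratio -0.23), and in GFP cells 8 were higher and 8 lower (median -0.20), or 4 lower with outside-table scaling. Over all genes tested 26.5% were higher and 24.5% lower in Twist2 cells (median -0.22) and 32.6% higher and 40.9% lower in GFP cells (median -0.38), so the repair genes were near the background in both, apart from a larger lower share in Twist2 cells. Over the settings tried these medians ran from -0.23 to 0.02 in Twist2 and from -0.20 to 0.58 in GFP cells, so their sign depends on scaling. Trim72 (6.88 in Twist2 and 6.19 in GFP cells) and the muscle calpain gene Capn3 were on the side of Dysf and Ano5. Capn3 had 275 reads in Twist2 and 2693 reads in GFP cells after differentiation, against 4 reads in Twist2 and 1 read in GFP cells in growth medium. On the other side were the caveolin gene Cav1 (-2.98 in Twist2 and -3.58 in GFP cells), S100a10 (-2.61 in Twist2 and -3.42 in GFP cells) and its partner annexin gene Anxa2 (-2.18 in Twist2 and -2.69 in GFP cells). Annexins and caveolin 1 are made by many cell types. Capn3 and Tfeb, counted as higher with both viruses, reached 10 CPM in the differentiation libraries alone. They could be listed only if they were higher there. Cav2, counted as lower with both viruses, reached it in the growth libraries alone, so its direction was fixed by the listing too.

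Between Twist2 and GFP cells in growth medium 2 of 17 repair genes over the minimum were higher and 1, Trim72 (-2.55), was lower, against 5.21% and 10.6% of all genes. The higher genes were Cav1 (1.52) and the annexin gene Anxa5 (1.01), or 1 gene with a pseudocount of 5 CPM or the outside-table scaling. In differentiation medium 4 of 18 were higher, led by Anxa5 (2.69) and Cav1 (2.12), and 5 lower, led by Capn3 (-3.65) and Trim72 (-1.85), against 25.4% and 25.2% of all genes, and these counts became 2 and 10 with the outside-table scaling. Capn3 had the lowest difference of responses of this list (-3.96), with few reads in growth medium. Dysf, the member with a lower response in Twist2 cells, shared that sign.

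The families of the members had few other listed genes. Of 10 ADAM names Adam8 and Adam19 were listed beside Adam12, and neither differed 2-fold between Twist2 and GFP cells over the minimum in either medium. Adam19 stood at 110.5 CPM in Twist2 cells and 168 CPM in GFP cells after differentiation, so its order was the reverse of that of Adam12. Of 10 anoctamin names Ano3 was the other listed gene, with 39.4 CPM in Twist2 cells and 23.8 CPM in GFP cells after differentiation and 79.4 CPM in Twist2 cells and 86.1 CPM in GFP cells in growth medium. Ano3 was lower after differentiation where Ano5 was higher. Tmem8b, the other listed gene of the TMEM8 family, was between 16.4 and 39.4 CPM in the 4 libraries. Of the ferlin and nephrin-like names, no gene other than Dysf and Kirrel was listed.

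Dysf and Ano5 also belong to the genes mutated in limb-girdle muscular dystrophy, which were taken with the dystrophin complex as a list of 39 names. Of these 18 were in the table, 16 outside the members. After differentiation of Twist2 cells 11 of 16 were at least 2-fold higher and 0 lower (median 2.22), against 26.5% higher, 24.5% lower and a median of -0.22 over all genes tested. In GFP cells 10 of the 14 over the minimum were higher and 0 lower (median 1.15 over 16), against 32.6% higher, 40.9% lower and a median of -0.38. Among them the syntrophin gene Sntb1 (3.29 in Twist2 and 3.10 in GFP cells) was higher with both viruses. Capn3 and Dmd, counted as higher with both viruses, reached 10 CPM in the differentiation libraries alone. They could be listed only if they were higher there. Between Twist2 and GFP cells in differentiation medium 2 of 16 were higher and 8 lower (median -0.95), against 25.4% higher, 25.2% lower and a median of -0.19 over all genes tested. In growth medium 2 of 14 were higher and 6 lower (median -0.63 over 16), against 5.21% higher, 10.6% lower and a median of -0.092.

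The 2 higher genes in each medium were the collagen VI genes Col6a1 (7.56 in differentiation and 2.31 in growth medium) and Col6a3 (6.89 in differentiation and 2.56 in growth medium), which encode matrix proteins and not membrane proteins. Both reached 10 CPM in the Twist2 libraries alone, so they could be listed only if they were higher there. Their higher level, and the count of 2 higher genes in each medium, supports nothing beyond that description. The dystrophin gene Dmd was on the lower side in differentiation medium (-3.06), with 30.4 CPM in Twist2 and 261 CPM in GFP cells, but not in growth medium (0.53), where both libraries were under 5 CPM. Ttn was lower in both media (-3.46 in differentiation and -3.84 in growth medium), as Ano5 was.

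**Figure D4:**
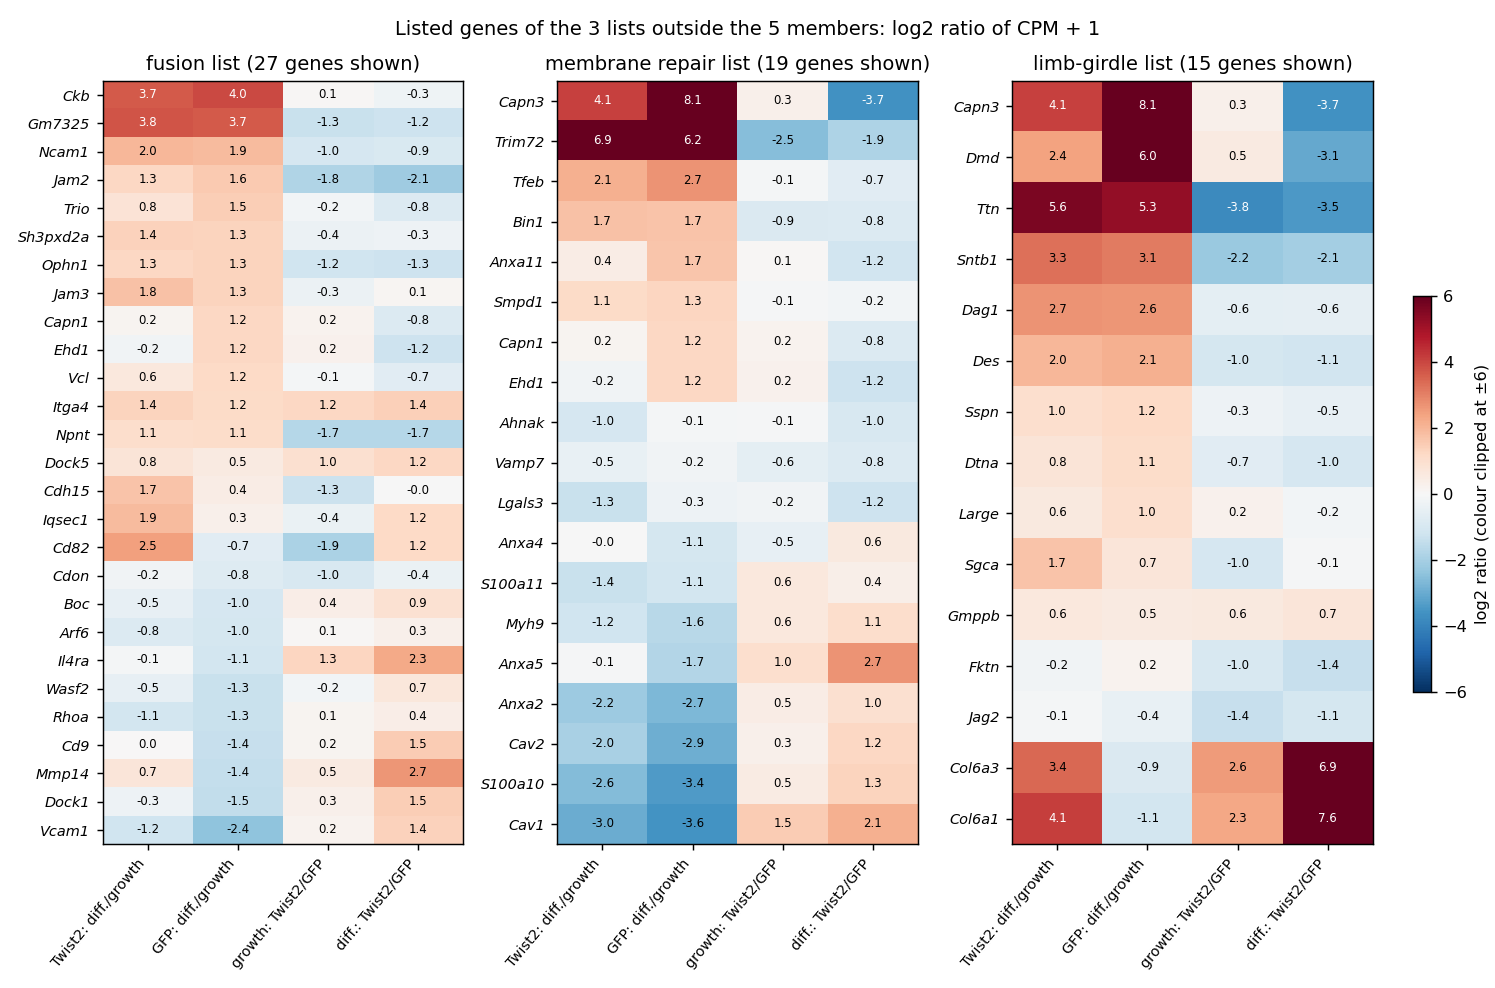
Log2 ratios of CPM + 1 in 4 comparisons (columns; diff., differentiation medium; each named as first over second) for the listed genes of the fusion, membrane repair and limb-girdle lists outside the 5 members (rows, ordered by the GFP differentiation ratio, with 1 limb-girdle gene not shown); red, higher in the first-named library; blue, lower; colours stop at 6 in either direction. Trim72, Capn3, Ttn and Dmd are dark red in the second column (GFP differentiation), Cav1 and S100a10 are blue there, and Col6a1 and Col6a3 are dark red in the last column.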

How the data were processed

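Per the labels' protocols, Illumina libraries were made from Trizol-extracted total RNA. TopHat2 2.0.0, DESeq2 1.6.3 and GRCm38 (mm10) are listed, with no role, in the submitters' processing notes; not given in the sources used here are the counter, annotation and strand setting. Deposited by the authors was 1 table with a CPM value per gene and library and 3 columns of log2 ratios against GFP growth medium. Those log2 ratios, from the authors' deposited table, matched log2((CPM + 1)/(CPM + 1)) within 1.27e-11.

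Each CPM value was a whole multiple of the value of 1 read, for 100% of values within 0.001 reads, which gave reads and totals for exact 95% counting intervals (Poisson for levels, conditional binomial for ratios). The libraries carry no stated molecular identifiers, so reads may repeat molecules and intervals cover counting error only. A count test was not run with 1 library per group. Log2 ratios are on the log2(CPM + 1) scale, where low genes differ by less than their true fold; folds are without the pseudocount. A gene was called at 2-fold if its higher library reached 10 CPM. The calculation was tested on simulated data.

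Members, lists, motifs and named genes (the members, up to 6 genes per list and comparison with the largest ratios, family genes and the 3 nearest patterns) were chosen with earlier results of these data known; 1 gene of the limb-girdle list, counted in its totals, is not reported here, and not all genes the rule selects are named. Trim72, Adam19 and Dmd are described in more detail after their values were seen. Of 3760 symbols, 3602 were found in GENCODE M21 and 140 through an older symbol. Promoter sequences are from RefSeq (GRCm38.p6), in which 3 of the 5 members matched; Tmem8c and Adam12 were not matched. Python 3.11.15, scipy 1.17.1 and pandas 2.3.3 were used. Alternatives were pseudocounts of 0.1 and 5 CPM, size factors, outside-table scaling, median centring and no minimum CPM.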

Additional observations from a re-analysis of the deposited data

Results flagged for a closer look

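Adam12 had log2 ratios of opposite sign after differentiation, 0.85 in Twist2 cells and -0.041 in GFP cells. The difference of these responses, 0.89, was not tested, since each group has 1 library. Its counting interval without the pseudocount was 0.042 to 1.90, and the GFP ratio rests on 20 and 22 reads with an interval that includes equality.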

How the results depend on the processing

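No paired analysis was possible because each group has 1 library, and no library could be left out. Of 25 log2 ratios of members, 24 kept their sign under all 5 alternatives; the exception is Adam12 in GFP differentiation, which ran from -0.058 to 0.53 and was positive under the 3 rescalings. The side of 2-fold changed for 3, the differences of responses of Tmem8c (0.83 to 1.77) and Dysf (-1.23 to -0.67) and Adam12 in Twist2 differentiation (0.68 to 1.08). In the difference of responses 1 member, Dysf, was thus at least 2-fold lower with the outside-table scaling, against 0.

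Over all listed genes, the 911 lower in Twist2 differentiation were 604 with outside-table scaling. The 1511 lower in GFP differentiation were 968 with size factors, 646 with outside-table scaling and 930 with median centring, and the 372 lower in Twist2 against GFP in growth medium were 241 with size factors. In differentiation medium the 873 higher and 867 lower genes were 497 and 1548 with outside-table scaling. For the difference of responses the 958 higher genes were 568 with outside-table scaling, and the 473 lower were 779 with size factors and 1065 with outside-table scaling. Counts without a minimum CPM stayed within 1.5 times. Size factors moved the log2 ratio of a gene by a median of 0.34 in GFP differentiation. That median shift was 0.24 in Twist2 against GFP in growth medium and -0.29 in the difference of responses. With outside-table scaling the median shift was 0.25 in Twist2 differentiation and 0.78 in GFP differentiation. It was -0.58 in Twist2 against GFP in differentiation medium and -0.53 in the difference of responses. The cause of these shifts was not tested. Depth limits Adam12 in the GFP libraries (20 and 22 reads), Gm7325 and Capn3 in growth medium, and Tmem8c in Twist2 growth medium (47 reads).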
